A study of Rattus norvegicus with 12 samples.

Results

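The genes examined were 10 members of the Bcl2 family, chosen by name from the 28111 gene names of a rat transcriptome data set. They were the survival genes Bcl2, Bcl2l1 and Mcl1, the pore-forming effectors Bax and Bak1, and the death-promoting genes Bad, Bid, Bcl2l11, Bbc3 and Pmaip1. A row under the gene's name was found for 8 members, 1 row each, and Mcl1 and Bbc3 were not analysed here. Neurons and glia of the cerebral cortex of Wistar rat pups had been grown together for 10 days, with cytosine arabinoside given on the way to hold back glial growth. The pups were of postnatal day 0 by the labels and of days 1 to 2 by the study's methods. RNA was taken 4 h after the addition of 1 of 3 preparations from the conditioned medium of human glial progenitor cells, which had been differentiated from induced pluripotent stem cells of 1 donor. The EV group received extracellular vesicles of these cells at 10 µg/mL, the 3–100 kDa group received proteins of that size range at 15 µg/mL, and a further group received the total secretome at 45 µg/mL. The intact control (IC) received nothing. The doses therefore differed between the preparations, and each of the 4 groups held 3 libraries. The study's methods say in general that experiments were repeated on unrelated cultures, but the sources used here do not tie each library to a culture, animal or day, so p-values measure only the spread between these libraries.

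Proteins of the Bcl2 family govern the mitochondrial pathway of apoptosis. Bcl2, Bcl-xL (the product of Bcl2l1) and Mcl1 hold the effectors Bax and Bak in check, and the effectors open pores in the outer mitochondrial membrane from which cytochrome c escapes. The BH3-only proteins Bad, Bid, Bim (Bcl2l11), Puma (Bbc3) and Noxa (Pmaip1) sense stress and either neutralise the survival proteins or activate the effectors. Noxa binds chiefly to Mcl1, and its gene is a known target of the stress-responsive factors of the ATF and CREB family. Neurons rely on Bcl-xL and Mcl1 for survival, and loss of Bax protects many developing neurons from death.

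Pmaip1 was the member whose level differed most between the conditions, and its promoter is shown because the main result turns on it. The promoter of Bmf, a further BH3-only gene described below but not called in any test, is set beside it. The sequences are the 250 bases before the annotated start site in RefSeq (GRCr8, a later build than the one used for quantification). Capitals mark each match to the motifs searched. In these windows the matches were to the GC box GGGCGG and to the core of the cyclic AMP response element (CRE core), TGACG, which reads as its reverse complement where it lies on the opposite strand. The Pmaip1 window is chr18:62255720-62255969 on the plus strand and the Bmf window chr3:125974065-125974314 on the minus strand.
Pmaip1: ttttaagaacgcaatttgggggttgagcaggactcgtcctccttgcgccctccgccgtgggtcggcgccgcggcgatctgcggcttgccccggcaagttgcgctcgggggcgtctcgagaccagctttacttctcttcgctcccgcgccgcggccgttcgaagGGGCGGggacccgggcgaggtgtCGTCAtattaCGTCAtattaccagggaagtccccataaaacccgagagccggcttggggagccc
Bmf: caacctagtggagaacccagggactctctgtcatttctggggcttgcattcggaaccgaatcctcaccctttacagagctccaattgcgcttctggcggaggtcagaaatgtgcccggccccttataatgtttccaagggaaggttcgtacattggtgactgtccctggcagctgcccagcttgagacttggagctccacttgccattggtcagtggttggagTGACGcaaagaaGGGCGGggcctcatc
The Pmaip1 window held 2 CRE cores on the opposite strand, beginning 64 and 54 bases before the start, and a GC box 87 bases before it. The Bmf window held 1 CRE core and 1 GC box, 27 and 15 bases before the start. Of 33465 promoter windows of this length, 18.2% held at least 1 CRE core on either strand and 3.98% held at least 2, shares that include the 1.59% with the full palindromic CRE, TGACGTCA. The GC box was found in 30.5%. The other motifs searched were the AP-1 site TGACTCA, the STAT site TTCNNNGAA, the FOXO site TGTTTAC, the ATF4 element TGATGNAA, the E-box CACGTG and the TATA box TATAAA. No match to these, on either strand, lay in either window. Of the 10 members, 8 had a window in the table. A CRE core was also found in the window of Mcl1, together with a GC box. The windows of Bid, Bcl2l11 and Bak1 held 3, 2 and 1 GC boxes, a FOXO site lay in those of Bad and Bcl2l11, STAT sites in those of Bad and Bcl2l1, ATF4 elements in those of Bcl2 and Bcl2l1 (which has several, partly overlapping start windows), and a TATA box in that of Bcl2. These matches are descriptions of letters and not of bound factors.

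The members spanned a wide range of abundance. Levels are given as TPM (transcripts per 1000000 transcripts), which is scaled by transcript length and can be set side by side between genes. Over the 12 libraries Bax averaged 87.2 TPM, more than 94.4% of gene names, and Bcl2l1 averaged 70.0 TPM. Bad stood at 50.3 TPM, Bid at 28.2 TPM and Bak1 at 20.5 TPM. Bcl2l11, Bcl2 and Pmaip1 were the scarce members, at 4.34, 3.82 and 3.81 TPM. Bcl2l1 was thus the main survival transcript of the members measured, and its lowest library, at 58.7 TPM, lay above the highest Bcl2 library, at 6.77 TPM. A pseudogene row, Bcl2l1-ps1, was at 0 in 7 libraries and at most 2.29 TPM in the others. The highest library exceeded the lowest 14.8 times for Pmaip1, 4.89 times for Bcl2 and between 1.43 times (Bid) and 2.12 times (Bax) for the other 6 members.

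**Figure D1:**
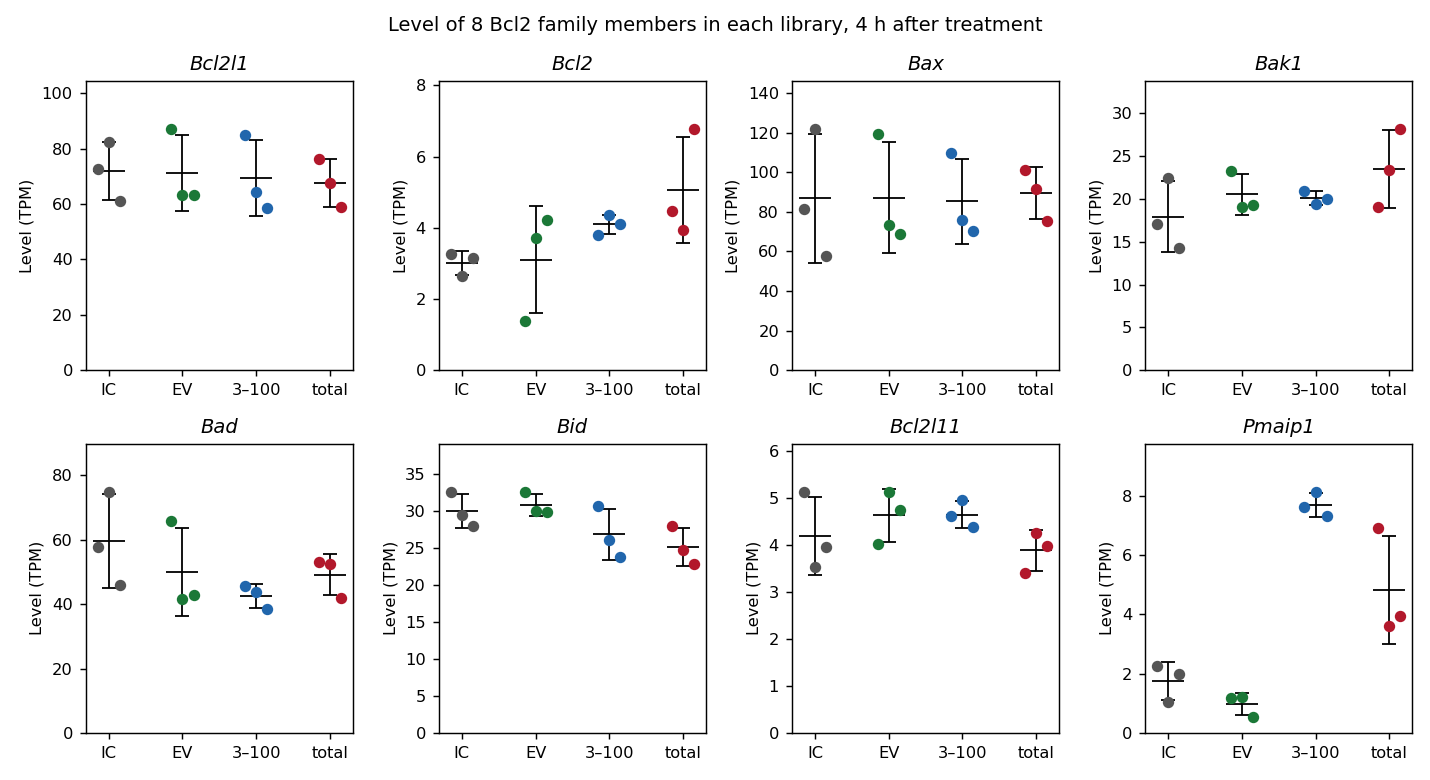
Level of each of the 8 members in TPM (vertical axis, from 0, scale differing between panels) in the 3 libraries of IC, EV, 3–100 kDa proteins and total secretome (points), with the group mean and SD (bars). Pmaip1 lies between 7.32 and 8.14 TPM after the 3–100 kDa proteins and at or below 2.25 TPM in every IC and EV library, whereas the points of Bax and Bcl2l1 overlap in all 4 groups.

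The first question was whether any member differed among the 4 conditions. In limma's moderated F test across all 12 libraries, Pmaip1 was the 1 member of 8 called at an FDR of 0.05 (adjusted p = 0.00128), where 4.4% of the 13263 genes tested were called. The other adjusted p-values of this test were 0.487 for Bid, 0.615 for Bcl2 and at least 0.774 for the remaining 5 members. All 8 members passed the filter of at least 1 TPM in at least 3 libraries in each comparison.

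Pmaip1, which encodes Noxa, rose after the 3–100 kDa proteins. The IC libraries stood at 2.25, 1.03 and 1.99 TPM (1.76 ± 0.640, SD, n = 3). After the 3–100 kDa proteins the values were 7.62, 8.14 and 7.32 TPM (7.69 ± 0.415), a ratio of means of 4.38. After the total secretome it was at 6.92, 3.61 and 3.95 TPM (4.82 ± 1.82), and after EV at 1.17, 1.23 and 0.549 TPM (0.981 ± 0.376). Every library of the 3–100 kDa and total secretome groups lay above every IC library, and the EV libraries overlapped those of IC. On the scale of log2(TPM + 1), which understates the change of scarce genes, the difference of 3–100 kDa proteins from IC was 1.71 (SE 0.23, 95% interval 1.17 to 2.25, limma adjusted p = 0.0103). The same limma test called 3.31% of all genes in this comparison, and 1 of the 8 members. Leaving out 1 library kept the difference between 1.498 and 1.82, but not always the call. Without 3–100 kDa replicate 2 or replicate 3 the difference was 1.70 and 1.69 but the adjusted p was 0.0693 and 0.0749.

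The total secretome difference of Pmaip1 from IC was 1.07 (SE 0.28, 95% interval 0.43 to 1.72), with an unadjusted limma p of 0.00539 and an adjusted p of 0.113. It passed an unadjusted p of 0.05 with a fold change over 1.5, as did 8.09% of genes, but not the FDR. The study's Results give a p-value below 0.05 with a 1.5-fold change and do not say whether it was adjusted. Its methods name an FDR below 0.05. A fit of all 12 libraries with 1 shared spread gave the same difference an adjusted p of 0.0327. After EV the difference was −0.47 (95% interval −1.14 to 0.19, limma adjusted p = 0.9998), an interval that excludes a rise of the size seen with the 3–100 kDa proteins. The summed TPM of 10 neuronal marker genes lay between 3877 and 4030 in IC, between 3260 and 3811 after the 3–100 kDa proteins and between 3157 and 3951 after the total secretome. After EV it lay between 3694 and 4055. Tubb3 and Stmn2, the most abundant, averaged 1417 and 1434 TPM in IC and 1159 and 1313 TPM after the 3–100 kDa proteins. There the means of Rbfox3, Map2 and Syt1 were also lower than in IC, and those of Snap25, Gad1, Gad2 and Nefl higher. Limma called 0 of the 10 against IC after these proteins (3.31% of all genes), with a median log2 difference of −0.01 (−0.02 over all genes). Summed oligodendrocyte lineage markers lay between 183 and 236 TPM in IC, between 124 and 189 TPM after the 3–100 kDa proteins and between 238 and 265 TPM after the total secretome, and astrocyte markers at 1051 to 1523, 1261 to 1657 and 1447 to 1847 TPM in the same order. The part of these markers in the Pmaip1 result was not tested, and in bulk cultures fewer cells of a type cannot be told apart from less RNA per cell.

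Between the preparations, Pmaip1 was lower after EV than after the 3–100 kDa proteins by 2.17 on the log2 scale (SE 0.21, limma adjusted p = 0.0135), a ratio of mean TPM of 7.84 between the proteins and EV. This limma comparison called 0.534% of genes and no other member. Leaving out 1 library kept the difference between −2.26 and −2.01, but the adjusted p was above 0.05 without 3–100 kDa replicate 1 (0.0542), 2 (0.112) or 3 (0.135) and without EV replicate 2 (0.0700) or 3 (0.0512). EV lay below the total secretome by 1.54 (SE 0.27, unadjusted p = 0.000564, limma adjusted p = 0.136), again with no overlap between libraries. The total secretome lay below the 3–100 kDa proteins in every library, with a difference of −0.62 (95% interval −1.11 to −0.14, unadjusted p = 0.0186, limma adjusted p = 0.9999). The order of the 4 group means was 3–100 kDa proteins, total secretome, IC and EV. The first 2 neighbours did not pass the FDR against each other, nor did the last 2. The preparations were given at 15, 45 and 10 µg/mL, so these differences are between preparations at unlike doses.

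Within the BH3-only members the share held by Pmaip1 differed likewise. Of the summed TPM of Bad, Bid, Bcl2l11 and Pmaip1, Pmaip1 made up 1.91% ± 0.840 (SD, n = 3) in IC, 1.13% ± 0.436 after EV, 5.75% ± 1.68 after the total secretome and 9.45% ± 0.720 after the 3–100 kDa proteins. Even at its highest it stayed a minor BH3-only transcript beside Bad and Bid.

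**Figure D2:**
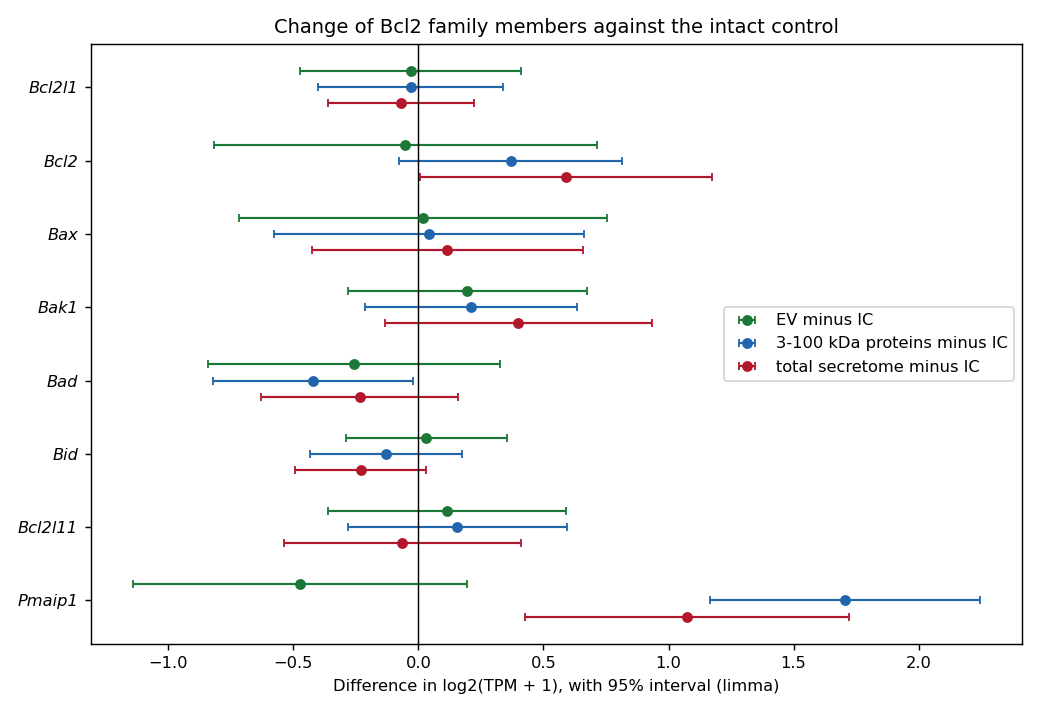
Difference of each member from IC in log2(TPM + 1) (horizontal axis) with its 95% interval from limma, for EV, 3–100 kDa proteins and total secretome (colours). The interval of Pmaip1 lies above 0 for the 3–100 kDa proteins (1.17 to 2.25) and the total secretome (0.43 to 1.72), and the EV intervals of all 8 members span 0.

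The survival genes gave no call. Bcl2, the founding survival gene of the family, was at 3.25, 2.64 and 3.14 TPM in the IC libraries, at 3.80, 4.36 and 4.11 TPM after the 3–100 kDa proteins and at 4.48, 3.95 and 6.77 TPM after the total secretome. Both sets of treated libraries lay above IC without overlap. The log2 difference was 0.37 (95% interval −0.08 to 0.82, limma adjusted p = 0.392) after the 3–100 kDa proteins and 0.59 (0.01 to 1.17, unadjusted p = 0.0485, adjusted p = 0.304) after the total secretome. Without total secretome replicate 3, the highest Bcl2 library, the latter difference was 0.35. After EV, Bcl2 was at 1.38, 3.72 and 4.21 TPM, and the EV libraries lay on both sides of IC (difference −0.05, 95% interval −0.82 to 0.71). Bcl2l1 was at 72.5, 82.3 and 61.3 TPM in the IC libraries and at 87.0, 63.5 and 63.2 TPM after EV. Its group means lay between 67.6 ± 8.68 TPM (total secretome) and 72.0 ± 10.5 TPM (IC), with overlapping libraries throughout. For Bcl2l1 the interval of the log2 difference from IC was −0.47 to 0.41 for EV, −0.40 to 0.34 for the 3–100 kDa proteins and −0.36 to 0.22 for the total secretome.

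The effectors gave no call either. Bax was at 81.4, 122 and 57.4 TPM in IC, a 2.12-fold range within 1 group, and its 4 group means lay between 85.2 ± 21.4 TPM (3–100 kDa proteins) and 89.4 ± 13.1 TPM (total secretome). Its libraries overlapped in each comparison, and the log2 differences from IC were 0.02 (EV), 0.04 (3–100 kDa proteins) and 0.12 (total secretome), with intervals reaching from −0.72 to 0.75 for EV. Bak1, the second effector, was at 17.1, 22.4 and 14.2 TPM in the IC libraries and at 19.0, 23.4 and 28.1 TPM after the total secretome. The Bak1 difference was 0.40 (95% interval −0.13 to 0.93, limma adjusted p = 0.452) after the total secretome, 0.21 after the 3–100 kDa proteins and 0.20 after EV. Without total secretome replicate 3 the first of these was 0.22.

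Among the other BH3-only genes, Bad, Bid and Bcl2l11, none passed the FDR in a comparison with IC. Bad, whose product is inactivated by survival kinases such as Akt, was at 57.9, 74.9 and 45.9 TPM in the IC libraries and at 45.6, 43.7 and 38.4 TPM after the 3–100 kDa proteins. These groups met at 45.9 and 45.6 TPM without overlapping, and the log2 difference was −0.42 (95% interval −0.82 to −0.02, unadjusted p = 0.0407, limma adjusted p = 0.265). The Bad difference was −0.26 after EV and −0.24 after the total secretome, with overlapping libraries in both. Without IC replicate 2, the highest Bad library of that group, the differences were −0.25 (3–100 kDa proteins), −0.09 (EV) and −0.07 (total secretome). Bid, which links death receptors to mitochondria in its cleaved form, was at 32.5, 29.5 and 27.9 TPM in the IC libraries and at 27.9, 24.6 and 22.8 TPM after the total secretome (difference −0.23, 95% interval −0.49 to 0.03, limma adjusted p = 0.373). After EV, Bid was at 32.5, 30.01 and 29.9 TPM. Bcl2l11, which encodes Bim and responds to FoxO factors and Jun, was between 3.41 and 5.12 TPM in all 12 libraries. Its differences from IC were 0.11 (EV), 0.16 (3–100 kDa proteins) and −0.06 (total secretome), with intervals that span 0.

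Counted over the members, limma called 0 of 8 after EV at the FDR, where 0.141% of genes were called, and 0 of 8 after the total secretome, where 1.97% were called. At an unadjusted p under 0.05 the counts were 0 of 8 after EV (2.82% of genes), 2 after the 3–100 kDa proteins (17%) and 2 after the total secretome (16.2%). With a fold change over 1.5 as well they were 0, 1 and 2 of 8, beside 2.16%, 10% and 8.09% of genes. Libraries did not overlap with IC for 0 of 8 members after EV, 3 of 8 after the 3–100 kDa proteins and 3 of 8 after the total secretome, where this held for 6.16%, 23.6% and 24% of genes. Complete separation of 3 from 3 libraries cannot give an exact two-sided permutation p below 0.1. The median log2 difference of the 8 members was −0.01 (EV), 0.10 (3–100 kDa proteins) and 0.03 (total secretome), beside −0.01, −0.02 and −0.01 over all genes tested. Between total secretome and 3–100 kDa proteins limma called 0 of 8 members (0.0157% of genes), and 1, Pmaip1, had an unadjusted p under 0.05 (2.64% of genes). Between EV and total secretome it also called 0 of 8 (0.188%), and Pmaip1 alone had an unadjusted p under 0.05 (7.7%). Between EV and 3–100 kDa proteins Pmaip1 was the 1 member with an unadjusted p under 0.05, where 9.34% of genes had one. Libraries did not overlap for 3, 2 and 1 of the 8 members in these comparisons, beside 6.53%, 14.4% and 16.4% of genes.

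Part of the spread of the members followed libraries and not conditions. In each of the 3 treated groups, replicate 1 was the highest library for Bcl2l1, Bax, Bad and Bid, and in IC replicate 2 was the highest for Bcl2l1, Bax and Bad. Levels of Bax in these libraries were 119 TPM (EV), 110 TPM (3–100 kDa proteins), 101 TPM (total secretome) and 122 TPM (IC replicate 2), while every other library was at or below 91.5 TPM. Over the 12 libraries the gene whose pattern was most like that of Bax was Mrpl27, a mitochondrial ribosomal protein gene (Pearson's r 0.99, Spearman's rho 0.99, on rescaled log2 values). The gene most like Bad was Eif3k, a translation initiation factor subunit gene (r 0.97, rho 0.94). The nearest genes to the others were Gpsm1 for Bcl2l1 (r 0.98), Nuak1 for Bid (r 0.97), ST7 for Pmaip1 (r 0.95), Golim4 for Bcl2 (r 0.93), Sapcd2 for Bak1 (r 0.92) and Nckap5 for Bcl2l11 (r 0.88). Each was the highest of 13262 genes and is given as a description, since the points share libraries and groups.

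The balance of survival to effector transcripts was compared between the conditions as a ratio within each library. The sum of Bcl2 and Bcl2l1 divided by the sum of Bax and Bak1 was 0.753 ± 0.155 (SD, n = 3) in IC, 0.704 ± 0.0751 after EV, 0.699 ± 0.0236 after the 3–100 kDa proteins and 0.643 ± 0.0252 after the total secretome. The IC libraries spanned 0.590 to 0.899, a range that took in every treated library. With all 6 death-promoting members in the denominator the means lay between 0.371 ± 0.0118 (total secretome) and 0.391 ± 0.0118 (3–100 kDa proteins). Bax, Bad and Bid carried most of the death-promoting TPM in this sum.

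**Figure D3:**
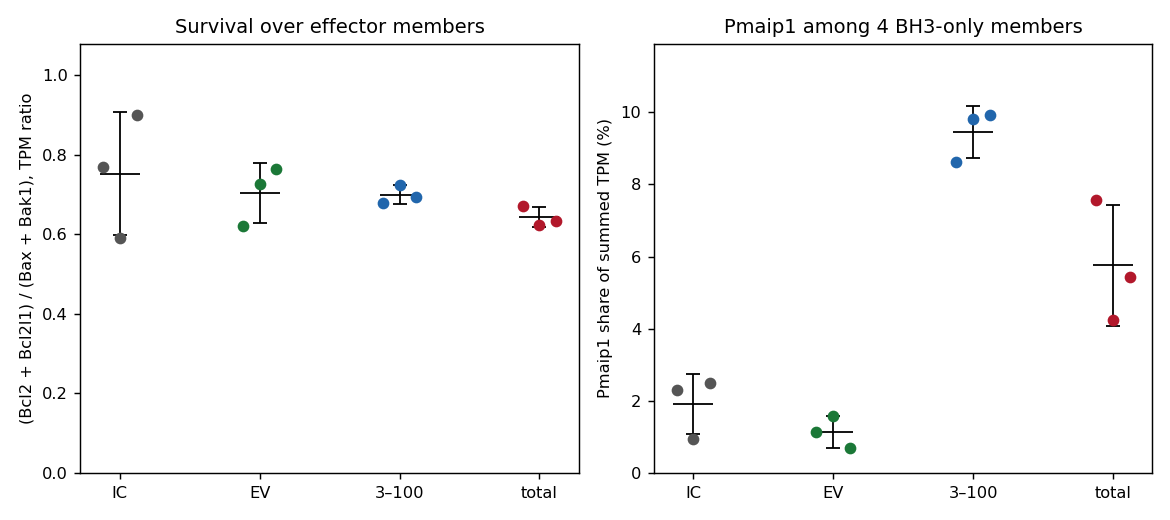
For each library (points) with the group mean and SD (bars), one panel gives the ratio of summed TPM of Bcl2 and Bcl2l1 to that of Bax and Bak1, and the other the percentage of BH3-only TPM held by Pmaip1. The IC ratios span 0.590 to 0.899 and cover the treated libraries, and the Pmaip1 share reaches 9.45% ± 0.720 after the 3–100 kDa proteins against 1.91% ± 0.840 in IC.

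Other genes of the family were taken from a list of 13, of which 6 passed the filter in the comparisons with IC. None passed the FDR in limma, and by unadjusted p and fold change 0 were higher and 1, Bmf, was lower in each comparison, where 2.16%, 10% and 8.09% of all genes met this criterion after EV, the 3–100 kDa proteins and the total secretome. Bmf encodes a BH3-only protein tied to the actin cytoskeleton. It was at 3.31, 2.90 and 1.15 TPM in the IC libraries, at 0.365, 0.756 and 0.371 TPM after EV, at 0.948, 0.629 and 0.218 TPM after the 3–100 kDa proteins and at 0.2495, 1.05 and 0.446 TPM after the total secretome. All 9 treated libraries lay below all 3 IC libraries. The 3 comparisons share these IC libraries, and at most 1 treated library per comparison reached 1 TPM, so Bmf met the filter mainly through IC and its p-values are given as a description. The log2 differences were −1.15 (EV, SE 0.31, limma adjusted p = 0.735), −1.06 (3–100 kDa proteins, SE 0.31, adjusted p = 0.136) and −1.07 (total secretome, SE 0.33, adjusted p = 0.163). Bcl2l2, the survival gene that encodes Bcl-w, kept group means between 23.1 ± 2.92 and 25.3 ± 1.87 TPM. Bnip3l, a mitophagy receptor gene, was at 91.6 ± 10.8 TPM in IC and 74.6 ± 8.28 TPM after the 3–100 kDa proteins (difference −0.26, 95% interval −0.54 to 0.02). Bcl2a1 was listed at 0 in all 12 libraries, as was the ribosomal protein gene Rps6, and such a 0 says nothing about expression.

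Genes that act after the mitochondrial pore, from cytochrome c and the apoptosome to the inhibitors of apoptosis, are reported for 18 names, of which 16 were tested. In limma 0 of these 16 passed the FDR in any comparison with IC, and 0, 1 and 0 had an unadjusted p under 0.05 after EV, the 3–100 kDa proteins and the total secretome. Over all genes the FDR was passed by 0.141%, 3.31% and 1.97%, and an unadjusted p under 0.05 was reached by 2.82%, 17% and 16.2%. The 1 gene was Cycs, which encodes cytochrome c, at 283 ± 4.03 TPM in IC and 369 ± 20.4 TPM after the 3–100 kDa proteins (difference 0.41, 95% interval 0.12 to 0.70, limma adjusted p = 0.144). Apaf1, the scaffold of the apoptosome, was at 19.8 ± 4.56 TPM in IC and 17.9 ± 2.84 TPM after the 3–100 kDa proteins. Of 5 ubiquitin enzymes that act on Mcl1 protein, 4 were tested and none passed either criterion in the 3 comparisons with IC.

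Genes upstream of the family were examined next. Of 13 genes of stress responses and growth arrest, 12 were tested, and limma called 2 after the 3–100 kDa proteins, 2 after the total secretome and 0 after EV, each called gene being higher, where 3.31%, 1.97% and 0.141% of all genes were called. They were Cdkn1a, which encodes the cell cycle inhibitor p21, and Gadd45b, a stress response gene. Cdkn1a was at 24.3, 22.8 and 29.0 TPM in the IC libraries, at 49.0, 80.9 and 74.6 TPM after the 3–100 kDa proteins, at 53.9, 59.5 and 59.1 TPM after the total secretome and at 17.2, 24.3 and 26.6 TPM after EV. Like Pmaip1, Cdkn1a was above IC without overlap after the 3–100 kDa proteins and the total secretome and overlapped IC after EV. The log2 differences of Cdkn1a were 1.40 (SE 0.24, limma adjusted p = 0.0250) and 1.18 (SE 0.17, adjusted p = 0.0168), and −0.18 after EV (95% interval −0.68 to 0.33). Gadd45b was at 1.10 ± 0.679 TPM in IC, 6.43 ± 0.758 TPM after the 3–100 kDa proteins (adjusted p = 0.0125) and 5.06 ± 0.961 TPM after the total secretome (limma adjusted p = 0.0418). After EV, unlike Cdkn1a, Gadd45b lay above IC without overlap, at 2.13 ± 0.116 TPM (difference 0.63, 95% interval −0.03 to 1.29, limma adjusted p = 0.9998). By unadjusted p and fold change, Btg2, an antiproliferative gene, was lower in all 3 comparisons. Its level was 23.0 ± 7.68 TPM in IC and between 11.5 ± 3.55 and 12.2 ± 2.29 TPM after treatment, and the adjusted p was at least 0.152.

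In the death receptor branch, limma called 1 of 8 tested genes after EV, 2 of 10 after the 3–100 kDa proteins and 2 of 8 after the total secretome, all higher, beside 0.141%, 3.31% and 1.97% of all genes. These were Tnfrsf12a, the receptor for the cytokine TWEAK, in all 3 comparisons, and Tnfrsf1a, a receptor for tumour necrosis factor, in the latter 2. Tnfrsf12a was at 0.953, 3.10 and 1.22 TPM in the IC libraries and at 88.6, 94.4 and 99.9 TPM after the 3–100 kDa proteins, a log2 difference of 5.21 (SE 0.29, limma adjusted p = 0.000387). After the total secretome it was at 49.4, 58.8 and 65.3 TPM, a difference of 4.50 (SE 0.30, limma adjusted p = 0.00209). Tnfrsf1a was at 14.9 ± 2.05 TPM in IC, 31.7 ± 4.53 TPM after the 3–100 kDa proteins (adjusted p = 0.0243) and 36.6 ± 3.08 TPM after the total secretome (limma adjusted p = 0.00895). After EV it was at 37.4 ± 6.26 TPM, above IC without overlap (difference 1.25, unadjusted p = 0.000146, limma adjusted p = 0.0717). Ripk1, which encodes a kinase of the receptor complex, passed the unadjusted criterion after EV (difference 0.62, limma adjusted p = 0.9998).

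Of 30 transcription factors and kinases known to act on the members, 29 were tested. After the 3–100 kDa proteins limma called 4 of them, beside 3.31% of all genes, all higher, namely Stat3, Jun, Myc and Atf4. After EV and after the total secretome it called 1 each, beside 0.141% and 1.97% of all genes, namely Stat3, an activator of survival genes. Jun, an AP-1 factor activated by stress kinases in neurons, was at 39.9 ± 7.52 TPM in IC, 90.9 ± 7.06 TPM after the 3–100 kDa proteins (difference 1.21, SE 0.16, limma adjusted p = 0.00842) and 53.9 ± 10.9 TPM after EV (difference 0.41, 95% interval −0.02 to 0.84). After the total secretome Jun was at 64.7 ± 14.4 TPM (difference 0.69, unadjusted p = 0.0178, limma adjusted p = 0.193). Atf4, the central factor of the integrated stress response, was at 206 ± 27.8 TPM in IC and 332 ± 41.3 TPM after the 3–100 kDa proteins (difference 0.72, SE 0.13, limma adjusted p = 0.0346). It was at 305 ± 47.2 TPM after the total secretome (difference 0.58, unadjusted p = 0.00240, limma adjusted p = 0.0740) and 241 ± 43.5 TPM after EV (difference 0.21, 95% interval −0.22 to 0.64). Myc rose from 19.5 ± 2.93 to 44.0 ± 7.61 TPM after the 3–100 kDa proteins (difference 1.16, limma adjusted p = 0.0211), and was at 30.1 ± 3.81 TPM after EV (adjusted p = 0.701) and 33.4 ± 2.67 TPM after the total secretome (adjusted p = 0.0511). Nfkb1, a subunit gene of NF-κB, passed the unadjusted criterion after the 3–100 kDa proteins (difference 0.90, limma adjusted p = 0.0754) and the total secretome (difference 0.70, limma adjusted p = 0.0912), and was 0.34 above IC after EV (95% interval −0.08 to 0.77). By the unadjusted criterion the list held 2, 5 and 4 higher genes after EV, the 3–100 kDa proteins and the total secretome, and 0, 1 and 0 lower, beside 2.16%, 10% and 8.09% of all genes in either direction. The lower gene was Foxo3, a FoxO factor that acts on Bcl2l11, at 8.15 ± 1.37 TPM in IC and 4.27 ± 1.23 TPM after the 3–100 kDa proteins without overlap (difference −0.79, unadjusted p = 0.00682, limma adjusted p = 0.108). Foxo3 was at 5.22 ± 0.495 TPM after the total secretome (difference −0.53, limma adjusted p = 0.203) and 7.82 ± 1.36 TPM after EV (difference −0.06).

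**Figure D4:**
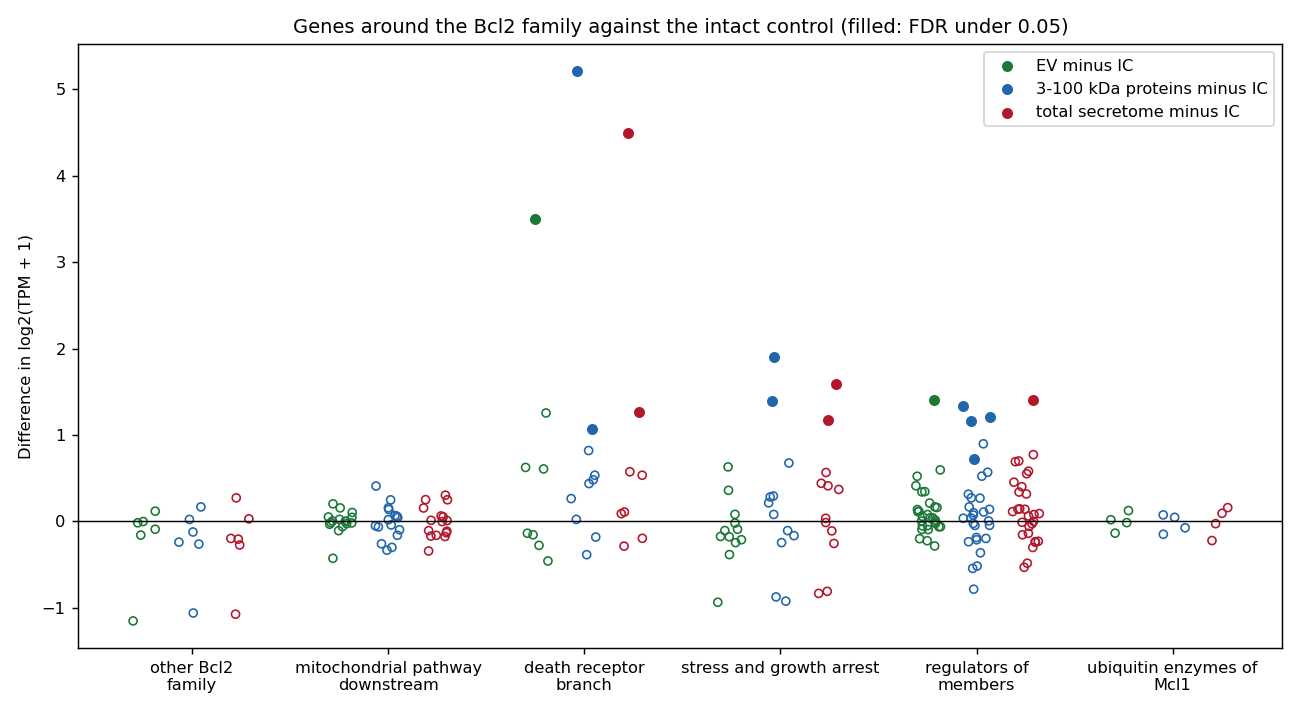
Difference from IC in log2(TPM + 1) (vertical axis) for each tested and reported gene of 6 lists (horizontal axis) after EV, 3–100 kDa proteins and total secretome (colours), with filled points for genes called by limma at an FDR of 0.05. Filled points are found among the death receptor, stress and growth arrest, and regulator lists, with Tnfrsf12a highest at 5.21, and none among the other Bcl2 family, the ubiquitin enzymes and the genes after the mitochondrial pore.

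The cultures carried the markers of their label. All 10 neuronal, 9 astrocyte and 8 oligodendrocyte lineage markers were above 0 in all 12 libraries, with summed levels of 3157 to 4055, 1051 to 1847 and 124 to 265 TPM. Of 7 oligodendrocyte lineage markers tested after the 3–100 kDa proteins, 0 passed the FDR in limma and 2, Olig1 and Sox10, were lower than in IC by the unadjusted criterion (adjusted p = 0.199 and 0.226), beside 3.31% and 10% of all genes. Among the others the difference was −0.41 for Pdgfra, and those of Olig2, Mbp and Cspg4 were 0.06, 0.10 and 0.19. Of 9 astrocyte markers after EV, 0 passed the FDR and 1, Gfap, was higher by the unadjusted criterion, at 191 ± 148 TPM in IC and 490 ± 127 TPM after EV (difference 1.58, limma adjusted p = 0.9998), beside 0.141% and 2.16% of all genes. Gfap also met the unadjusted criterion after the total secretome, at 438 ± 184 TPM (difference 1.40, limma adjusted p = 0.269). It was 1 of 9 there, beside 8.09% of all genes, and 0 passed the FDR (1.97%). After the 3–100 kDa proteins Gfap was at 333 ± 104 TPM (difference 1.05, limma adjusted p = 0.356), and 0 of 9 met either criterion. The median of the 9 was 0.27 after the total secretome and 0.19 after the 3–100 kDa proteins. Aldoc and S100b averaged 314 and 247 TPM in IC. They were lower, at 280 and 228 TPM after the total secretome and 250 and 213 TPM after the 3–100 kDa proteins. The other 8 EV differences lay between −0.33 (Aldoc) and 0.12 (Sox9), and the median of the 9 was 0.01. Pdgfrb, a receptor gene of mural cells and fibroblasts, was called by limma after the 3–100 kDa proteins, at 3.21 ± 0.781 TPM in IC and 0.551 ± 0.272 TPM after treatment (difference −1.42, SE 0.24, adjusted p = 0.0234). Pdgfrb met the filter there only through IC. Col1a1, a collagen gene and the 1 other fibroblast marker tested in this comparison, was in the opposite direction, at 0.219 ± 0.166 TPM in IC and 1.58 ± 0.266 TPM after the 3–100 kDa proteins (difference 1.10, unadjusted p = 0.00205, limma adjusted p = 0.0567). Col1a1 met the filter there only through the treated group, so the p-values of Pdgfrb and Col1a1 are given as a description. The Col1a1 mean was 1.13 TPM after the total secretome and 0.839 TPM after EV, where it did not reach the filter. The part of Pdgfrb and Col1a1 in the Pmaip1 result was not tested. The 8 microglial markers summed to between 0.425 and 3.12 TPM, with Ptprc listed at 0 throughout. Endothelial and mural markers summed to 2.53 to 4.23 TPM in IC and 0.537 to 1.80 TPM in the treated libraries. In IC this sum was mostly Pdgfrb, at a mean of 3.21 TPM. Kdr was in the opposite direction, at 0.028 TPM in IC and 0.133, 0.170 and 0.270 TPM after the 3–100 kDa proteins, the total secretome and EV. Fibroblast markers, a list that holds both Pdgfrb and Col1a1, summed to 3.15 to 4.28 TPM in IC and 1.69 to 3.44 TPM after treatment. Markers of dividing cells summed to between 62.5 and 171 TPM. No 2 libraries held identical values.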

How the data were processed

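The deposited files give 1 value per row for each of 12 libraries, with 32285 rows. The unit is not named. The values are not whole numbers and sum to 1000000 per library, so they were taken as TPM that the authors obtained with Salmon (genome decoy, Rnor_6.0 per the submitters' notes) and tximport after trimming with Trimmomatic and Cutadapt. The labels describe a strand-specific DNBSEQ library and the study's methods poly(A) selection and a NextSeq instrument. TPM keeps no depth, so the depth and counting error of each library are unknown.

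Rows of 1 name were summed. Values were rescaled by median-of-ratios factors within each comparison, kept at 1 TPM or more in at least 3 of 6 libraries, and tested on log2(TPM + 1) with limma 3.58.1 in R 4.3.3 (lmFit, eBayes with a mean-variance trend, two-sided, Benjamini-Hochberg over all genes, FDR 0.05). The authors' methods name a count test, which TPM does not allow. Each pair of groups was fitted alone, and a moderated F test used all 12 libraries. Genes past both an unadjusted p of 0.05 and a 1.5-fold change were counted too (the unadjusted criterion). Differences are the first-named group minus the other. The scripts were tested on simulated data, with changes placed only in genes more abundant than Pmaip1 in IC and the same spread for every gene. That simulation therefore did not cover scarce genes such as Pmaip1.

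The members and lists were chosen with earlier results of these data known. All members were named, and, over all pathway lists together, the up to 8 genes of lowest p per comparison with IC that passed the unadjusted criterion. The others named were chosen after their values were seen. They were Bmf outside EV and the total secretome, Btg2 outside EV, Bcl2l2, Bnip3l, Bcl2a1, Cycs, Apaf1 and Foxo3. The cell type markers and uncalled values of named genes were also chosen in this way. Some listed genes are not reported here, and the pathway list counts leave them out. Mcl1 and Bbc3 were not analysed here, so planned ratios were formed without them.

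Whether the replicate numbers of the labels pair libraries was checked. Deviations from the group mean were correlated across genes between libraries that share a number. The correlations were 0.25, 0.16 and 0.16 for total secretome and IC, 0.59, 0.29 and 0.30 for EV and 3–100 kDa proteins, 0.26, 0.19 and 0.21 for EV and total secretome, and 0.38, 0.21 and 0.24 for total secretome and 3–100 kDa proteins. By the rule that every correlation exceed 0.1 these 4 pairs of groups counted as paired, a reading that rests on the data and not on the labels. The intervals and p-values given for the members are from fits without this pairing, and fits with the replicate number as a block are described below. The study's supplement says that an effect of day was removed before a principal component analysis of IC and EV. No source used here assigns days to libraries, so day could not be fitted.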

Additional observations from a re-analysis of the deposited data

How the results depend on the processing

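Across 801 refitted member differences no call changed for any member but Pmaip1, for which 9 fits crossed the FDR threshold. Of the 702 differences of the other 7 members, 47 took another sign, none of them with p under 0.05 in either fit. Members under 5 TPM left the tests with a filter of 5 TPM wherever too few libraries reached it. The fit of all 12 libraries together gave Pmaip1 a difference of 1.07 for total secretome against IC (adjusted p = 0.0327) and of −1.54 for EV against total secretome (adjusted p = 0.0221), both called. Under the other processing choices Pmaip1 lay between 0.92 and 2.16 for 3–100 kDa proteins against IC, 0.53 and 1.43 for total secretome against IC, −0.79 and −0.18 for EV against IC, −2.94 and −1.10 for EV against 3–100 kDa proteins, −2.21 and −0.70 for EV against total secretome and −0.72 and −0.39 for total secretome against 3–100 kDa proteins, the ends of each range being pseudocounts of 0.1 and 5. Without 1 library it lay between 1.498 and 1.82, between −2.26 and −2.01 for EV against 3–100 kDa proteins and between 0.86 and 1.22 for total secretome against IC, where its adjusted p ranged from 0.0912 to 0.330. The F test of Pmaip1 kept an adjusted p between 0.00169 and 0.00773 without 1 library. The leave-one-out fits that keep 2 libraries in a group assume that they vary like the other group.

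Counts over all genes moved more. With a pseudocount of 5 the genes past the unadjusted criterion numbered 132 for EV against IC (275 with 1), 662 for 3–100 kDa proteins against IC (1282), 482 for total secretome against IC (1035), 322 for EV against 3–100 kDa proteins (654), 222 for EV against total secretome (510) and 64 for total secretome against 3–100 kDa proteins (158), where the FDR count went from 2 to 0. A filter of 5 TPM gave EV against IC 8 genes at the FDR (18) and 151 by the unadjusted criterion, and total secretome against 3–100 kDa proteins 86. Without small RNA, rRNA and mitochondrial rows EV against IC had 11 genes at the FDR and total secretome against 3–100 kDa proteins 0. The fit of all 12 libraries gave FDR counts of 58 for EV, 912 for 3–100 kDa proteins (423) and 533 for total secretome (252) against IC, of 182 for EV against 3–100 kDa proteins (68), 57 for EV against total secretome (24) and 0 for total secretome against 3–100 kDa proteins. Without a filter EV against 3–100 kDa proteins had 43, and without rescaling total secretome against 3–100 kDa proteins had 4. The cause of these moves was not tested.

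With the replicate number as a block, the FDR count was 340 for EV against 3–100 kDa proteins and 5 for total secretome against 3–100 kDa proteins. For 3–100 kDa proteins against IC and EV against IC, for which the day of each library was not known and whose correlations did not all exceed 0.1 (−0.01, −0.25 and 0.25, and −0.08, −0.18 and 0.54), it was 193 and 0. The block changed no call of a member.

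Without 1 library the FDR counts ranged from 0 to 21 (EV against IC), 83 to 484 (3–100 kDa proteins against IC), 31 to 809 (total secretome against IC), 2 to 72 (EV against 3–100 kDa proteins), 0 to 52 (EV against total secretome), 0 to 3 (total secretome against 3–100 kDa proteins) and 313 to 627 (F test). Counts by the unadjusted criterion ranged from 217 to 443, 364 to 891 and 157 to 280 for EV against IC, EV against total secretome and total secretome against 3–100 kDa proteins. With Bcl2l1 over Bax alone as the ratio of survival to effector genes, the group means were 0.878 (IC), 0.837 (EV), 0.820 (3–100 kDa proteins) and 0.758 (total secretome).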
